A study of Mus musculus with 6 samples.

Results

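Expression of 37 histone genes was compared between W4 mouse embryonic stem cell cultures that had been differentiated towards neurons with valproate (VPA) and with its solvent. The genes were taken from 19938 genes of an Affymetrix array by name, with patterns for older (Hist1h1a) and newer (H1f1) symbols of histones. The patterns were matched to the annotated and the updated symbol, which were the same for all 37. Genes that fit only through an older name, such as H2aw, were thus left out. Each gene was represented by the brightest probe set paired with that gene alone. The VPA group had 3 arrays of cultures given 300 uM VPA for 16 days, a dose called sub-toxic by the submitters. The PBS group had 3 arrays of cultures given phosphate-buffered saline over the same 16 days. All 6 cultures came from 1 line and were grown on coated plates in a neural medium with bFGF, and the design text calls the 3 cultures of a group biological replicates. Values are normalized log2 signals per probe set, changes are VPA minus PBS, and a gene was called at a Benjamini-Hochberg adjusted p under 0.05 over all 19938 genes (limma). With 3 arrays in each group, precision is limited by their number.

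Histones are the proteins around which DNA is wound. The core of a nucleosome is built from H2A, H2B, H3 and H4, and linker histones of the H1 class bind where the DNA enters and leaves it. Most histone genes lie in clusters and are read mainly while DNA is copied; their messages end in a stem-loop, not in a poly(A) tail, and are destroyed when S phase ends. A smaller group of variant genes outside the clusters, such as those of H2A.Z, macroH2A and the replacement form of H3, is transcribed through the cell cycle into polyadenylated messages, also in neurons that no longer divide. VPA inhibits histone deacetylases, the enzymes that take acetyl groups off histone tails. The whole transcript labelling named in the protocols is primed at random and so does not depend on a poly(A) tail.

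Most clustered histone genes among the 37 were higher with VPA, whereas most of the 37 that lie outside the clusters were not called. Of 37 histone genes 23 rose and 1 fell; of all genes 13.6% rose and 15.7% fell, 29.2% in either direction. Without PBS replicate 2 or without PBS replicate 3 the count that rose was 13, where 8.92% and 9.89% of all genes rose, and without VPA replicate 1 it was 26, where 19.8% rose. Clustered genes were taken as those of the 37 with an older name of a numbered cluster (Hist1 to Hist4). Among these 28 clustered genes 21 rose and 1 fell. Their median change was 0.45, or 1.37-fold, against a median of 0.0013 over all genes. H2aw and H2bu2, with the older names Hist3h2a and Hist3h2ba, were not among the 37. Neither was called, with changes of 0.03 and -0.11. Among the 9 genes outside the clusters 2 rose and 0 fell, with a median of 0.04. Of these 9, 2 had signals in the range of background in both groups and 1 in 1 group. The macroH2A genes were not among the 37 and were looked up later. Macroh2a2 fell (change -0.33, adjusted p = 0.0051) and Macroh2a1 was not called. The VPA arrays lay above all PBS arrays for 27 of the 37 genes and below them for 3, and the groups overlapped for 7; over all genes 20.2% lay above and 23.8% below. In bulk cultures, more cells that transcribe histone genes and more histone RNA per cell cannot be told apart.

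Promoter sequences are shown for 4 genes so that 3 clustered genes with large changes can be set beside a variant gene. H1f1 rose most of all, H2bc8 and H2bc14 rose most among H2B genes, and H2az1, the main H2A.Z gene, was not called. Each line gives the 150 bases before the annotated start (RefSeq, GRCm38.p6, strand of the gene, 5′ to 3′), with matches to 4 motifs in capitals.
H1f1, chr13:23763518-23763667: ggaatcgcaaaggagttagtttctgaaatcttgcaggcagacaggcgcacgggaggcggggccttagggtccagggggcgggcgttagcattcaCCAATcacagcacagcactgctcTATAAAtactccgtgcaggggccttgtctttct
H2bc8, chr13:23571250-23571399: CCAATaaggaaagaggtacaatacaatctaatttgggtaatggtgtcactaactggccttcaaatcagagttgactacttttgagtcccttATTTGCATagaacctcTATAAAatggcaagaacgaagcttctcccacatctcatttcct
H2bc14, chr13:21721894-21722043: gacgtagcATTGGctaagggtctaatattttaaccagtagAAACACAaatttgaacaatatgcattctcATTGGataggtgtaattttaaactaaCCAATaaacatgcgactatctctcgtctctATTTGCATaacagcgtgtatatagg
H2az1, chr3:137864337-137864486: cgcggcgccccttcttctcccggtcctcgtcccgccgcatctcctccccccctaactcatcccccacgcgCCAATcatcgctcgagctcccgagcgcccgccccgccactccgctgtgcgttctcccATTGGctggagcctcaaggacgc

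The motifs were the TATA box (TATAAA), the CCAAT box (CCAAT, which reads ATTGG on the other strand), the octamer bound by Oct factors (ATTTGCAT) and the box of H1 promoters (AAACACA), each searched on both strands in the 250 bases before the start. No matches to different motifs overlapped in the histone windows. H1f1 held a TATA box 33 bases and a CCAAT box 56 bases before its start, and H2bc8 a TATA box at 43 and an octamer at 59 bases. H2az1 held 2 CCAAT boxes and no match to the other 3 motifs. A window was found for 32 of the 37 genes. TATAAA was present in 14 of 24 clustered windows (58.3%) and 0 of 8 windows outside the clusters. Of the windows of 27025 genes 13% held it. These counts take a match anywhere in the window, such as at 250 bases in H4c6 and 212 bases in H2bc22. Matches of H2ac8 and H2bc8 lay at mirrored positions, as did most of those of H2ac1 and H2bc1. Such windows cover the same DNA from opposite strands, and their matches were counted in both. The TATAAA at 142 bases in H2ac8 was that at 43 bases in H2bc8. Likewise, that at 192 bases in H2ac1 was that at 94 bases in H2bc1. The 14 windows are thus not all separate. The window of H2bc14 held no TATAAA. The octamer, known from H2B promoters, was present in 5 of 7 H2B windows and 3 of 4 H2A windows, against 1.62% of all windows. The octamers of H2ac8 and H2ac1, at 128 and 124 bases, were those of H2bc8 and H2bc1, at 59 and 164 bases. These H2A matches are thus not separate from the H2B matches. The AAACACA box was present in 4 of 5 H1 windows, though not in that of H1f1, against 6.23% of all. CCAAT was present in 79.2% of clustered windows, 75% of those outside and 34.5% of all, but in only 2 of 6 H4 windows. A match describes letters and does not show that a factor binds there.

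**Figure D1:**
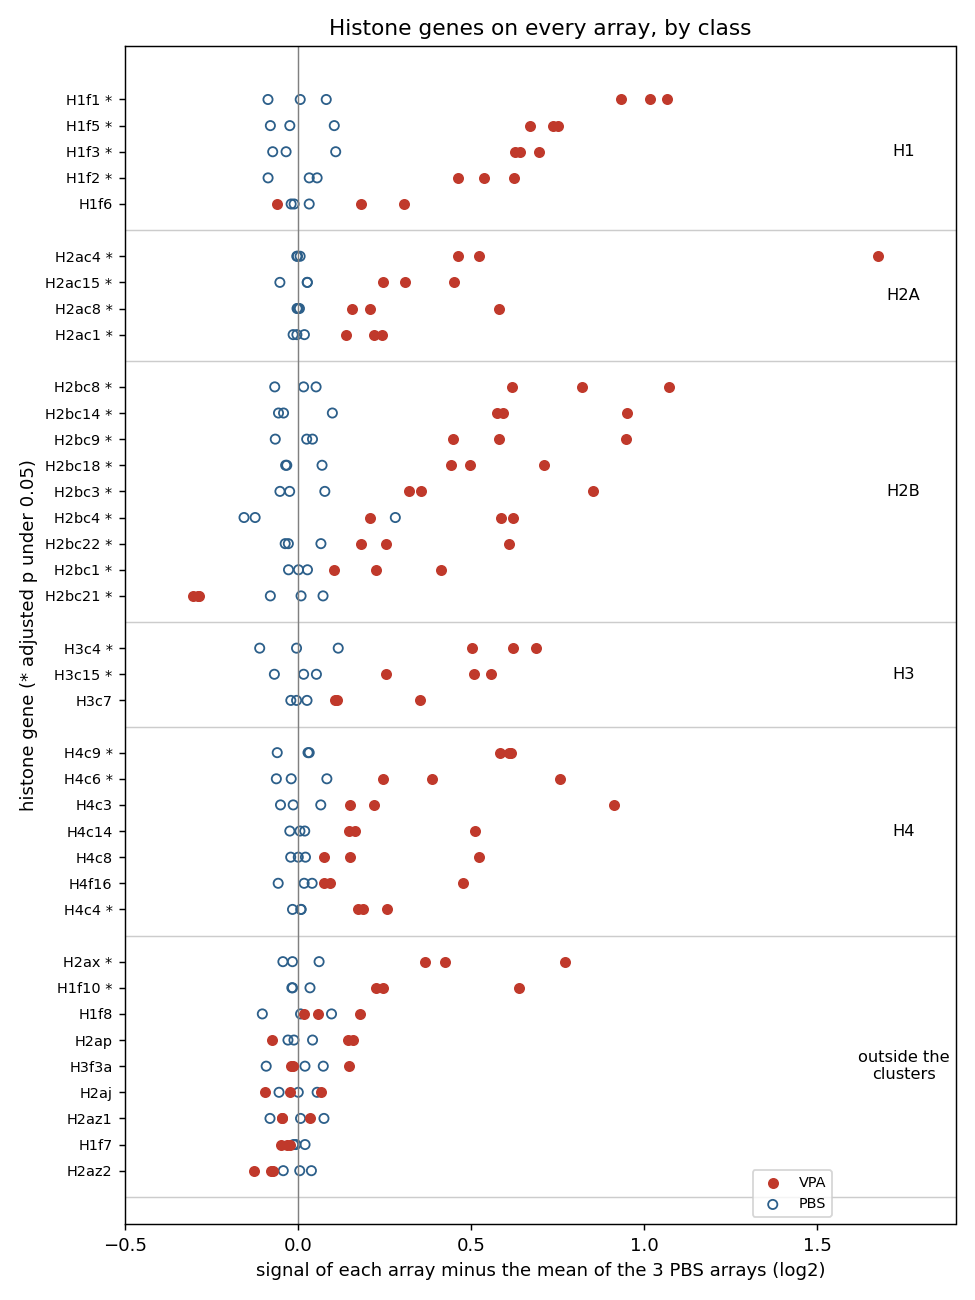
Each row is a histone gene, grouped by class, and each point is 1 array, as its log2 signal minus the mean of the 3 PBS arrays (filled, VPA; open, PBS; asterisk, adjusted p under 0.05). VPA points lie right of all PBS points for 27 genes, and H2bc21 is the 1 called gene to the left, with a change of -0.29.

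Of the 5 linker histone genes in the clusters 4 rose and 0 fell (all genes: 13.6% and 15.7%), with a median change of 0.65. H1f1, which encodes the subtype found mainly in dividing cells, had signals of 11.28, 11.14 and 11.23 with VPA, against 10.29, 10.12 and 10.22 with PBS. All 3 VPA arrays lay far above the PBS arrays, and the change of 1.01 (SE 0.07, adjusted p = 1.29e-05), or 2.01-fold, was the largest of the 37 genes. H1f5 had 10.98, 10.97 and 10.90 with VPA, against 10.34, 10.15 and 10.21 with PBS, a change of 0.72 (SE 0.07, adjusted p = 7.24e-05). H1f3 averaged 6.85 ± 0.04 with VPA and 6.19 ± 0.10 with PBS (SD, n = 3 each) and rose by 0.65 (SE 0.06). H1f2, the linker subtype common in many tissues, averaged 9.36 ± 0.08 with VPA and 8.82 ± 0.08 with PBS and rose by 0.54 (SE 0.07). In none of these 4 did the groups overlap. H1f6, the linker histone of testis, was not called, at 5.77 ± 0.19 with VPA and 5.63 ± 0.03 with PBS. Both means lay below 6.15, the 95th percentile of 1027 olfactory receptor genes, which are mostly silent outside the nose and served as a gauge of background signal.

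All 4 clustered H2A genes rose (all genes: 13.6%), with a median change of 0.33. H2ac4 had 9.31, 8.16 and 8.10 with VPA, against 7.63, 7.63 and 7.64 with PBS. The 3 VPA arrays lay above PBS, but VPA replicate 1 stood more than a whole log2 unit above the other VPA arrays. Its change was 0.89 (SE 0.27, adjusted p = 0.0362), and 0.49 without VPA replicate 1 (adjusted p = 0.000163). H2ac15 had 11.01, 10.87 and 10.81 with VPA and 10.59, 10.51 and 10.59 with PBS, a rise of 0.33 (SE 0.07). H2ac1, known from testis as TH2A, averaged 8.22 ± 0.05 with VPA and 8.02 ± 0.02 with PBS and rose by 0.20 (SE 0.06). H2ac8 differed by 0.32 (SE 0.10, adjusted p = 0.048), but its means of 4.38 with VPA and 4.07 with PBS both lay below the gauge, so that a signal above background was not shown.

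Of the 9 clustered H2B genes 8 rose and 1 fell (all genes: 13.6% and 15.7%), and the median change was 0.51. H2bc8 had 7.98, 7.53 and 7.73 with VPA, against 6.97, 6.85 and 6.93 with PBS, a rise of 0.84 (SE 0.10, adjusted p = 0.000428). The lowest VPA array was well above the highest PBS array. H2bc14 had 11.52, 11.16 and 11.15 with VPA, against 10.67, 10.51 and 10.53 with PBS, a rise of 0.71 (SE 0.10, adjusted p = 0.000983). H2bc9 had 10.81, 10.31 and 10.44 with VPA, against 9.90, 9.79 and 9.88 with PBS, a rise of 0.66 (SE 0.11). In both genes VPA replicate 1 was the highest array and the groups did not overlap. H2bc18, a gene of the smaller cluster, averaged 8.94 ± 0.14 with VPA and 8.39 ± 0.06 with PBS and rose by 0.55 (SE 0.08). H2bc3, H2bc4, H2bc22 and H2bc1, the TH2B gene of testis, rose by 0.51, 0.47, 0.35 and 0.25. H2bc4 was the exception among rising genes in that the groups overlapped, PBS replicate 1 at 9.25 being above VPA replicate 2 at 9.17.

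H2bc21 was the 1 gene of the 37 that fell. It encodes an H2B form which, in the mouse, replaces the ordinary protein in olfactory neurons, and it is known for expression in cells that have left the cycle. Its signals were 6.32, 6.31 and 6.32 with VPA, against 6.53, 6.68 and 6.62 with PBS. The VPA arrays were nearly identical and below every PBS array, and the gene fell by 0.29 on the log2 scale (change -0.29, SE 0.06, adjusted p = 0.00581). Both means, 6.32 and 6.61, lay close above the background gauge of 6.15.

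Of the 3 clustered H3 genes measured alone 2 rose (all genes: 13.6%). H3c4 had 7.84, 7.77 and 7.65 with VPA, against 7.26, 7.04 and 7.14 with PBS, a change of 0.60 (SE 0.08, adjusted p = 0.000472). H3c15 averaged 6.27 ± 0.16 with VPA and 5.83 ± 0.06 with PBS, a measured difference of 0.44 (SE 0.08) whose true size is not defined because the PBS mean lay below the gauge. H3c7 lay below it in both groups and was not called (0.19, adjusted p = 0.0912). In none of the 3 did the groups overlap, the VPA arrays being higher (all genes: 20.2%).

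Of the 7 H4 genes 3 rose, 0 fell and 4 were not called (all genes: 13.6% rose, 15.7% fell). Even so, VPA arrays lay above PBS arrays for all 7, against 20.2% of all genes. H4c9 had 8.75, 8.71 and 8.74 with VPA, against 8.16, 8.16 and 8.07 with PBS, a change of 0.60 (SE 0.06, adjusted p = 7.83e-05). Its arrays were the tightest of the H4 genes within the VPA group. H4c6 had 11.29, 10.92 and 10.78 with VPA, against 10.61, 10.51 and 10.47 with PBS, a rise of 0.46 (SE 0.12, adjusted p = 0.0176). H4c4 rose by 0.21 (SE 0.05), with means of 13.11 with VPA and 12.90 with PBS. A probe set that lists 11 histone symbols had the same means, so this signal may not come from H4c4 alone. H4c3, H4c14, H4c8 and H4f16, the H4 gene apart from the large clusters, had changes of 0.43, 0.27, 0.25 and 0.21 (adjusted p = 0.0988, 0.0583, 0.115 and 0.16), and of 0.18, 0.16, 0.11 and 0.08 without VPA replicate 1. In each of these 4 VPA replicate 1 was the highest array; H4c3 had 9.41, 8.65 and 8.72 with VPA, against 8.49, 8.56 and 8.45 with PBS.

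Outside the clusters, H2ax and H1f10 rose, 2 of 9 genes against 13.6% of all genes, and the other 7 were not called. H2ax encodes the H2A form that is phosphorylated at DNA breaks, and its gene gives both stem-loop and polyadenylated messages. It had 9.64, 9.24 and 9.30 with VPA, against 8.93, 8.83 and 8.86 with PBS, a rise of 0.52 (SE 0.10, adjusted p = 0.00468) without overlap. H1f10, which encodes the divergent linker histone H1x, had 10.22, 9.83 and 9.81 with VPA, against 9.57, 9.57 and 9.62 with PBS, a rise of 0.37 (SE 0.10, adjusted p = 0.0273). VPA replicate 1 was the highest array for both.

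The H2A.Z genes had high signals and small differences. H2az1 had 11.55, 11.55 and 11.63 with VPA, against 11.67, 11.51 and 11.60 with PBS, and the groups overlapped (change -0.02, SE 0.06, adjusted p = 0.859). H2az2 had 11.25, 11.19 and 11.24 with VPA, against 11.32, 11.28 and 11.36 with PBS; the VPA arrays lay below the PBS arrays by less than the test could call (change -0.09, SE 0.05, adjusted p = 0.242). H2aj averaged 7.30 ± 0.08 with VPA and 7.32 ± 0.06 with PBS (adjusted p = 0.867). The linker histone genes of spermatids and oocytes, H1f7 and H1f8, and the X-linked H2ap gave adjusted p of 0.665, 0.432 and 0.488. H1f8 lay below the gauge in both groups and H2ap in the PBS group. H3f3a averaged 6.08 ± 0.09 with VPA and 6.04 ± 0.08 with PBS, below the gauge in both groups on the probe set paired with it alone.

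Many histone genes are nearly identical in their coding sequence, and 32 further probe sets listed several genes of which at least 1 was a histone. These were tested in a second fit, chosen after seeing the data, over all 23410 probe sets that carried a symbol. Of the 32 probe sets 26 rose and 0 fell, where 13.6% of these 23410 rose and 14.7% fell. All 26 that belong to the clusters rose, by 0.20 to 0.59, with a median of 0.33. The 7 H2B probe sets, with 13 or 14 histone symbols each, had means of 12.13 to 12.64 with VPA, against 11.67 to 12.13 with PBS, and rose by 0.46 to 0.59. The 10 H3 probe sets listed 12 histone symbols each and rose by 0.31 to 0.35. The 2 H2A probe sets rose by 0.29 and 0.37, the 6 H4 probe sets by 0.20 to 0.31, and the probe set of H1f4 and H2bc6 by 0.46. Without VPA replicate 1 the largest adjusted p was 0.0741 among the H4 probe sets and 0.00798 among the H3 probe sets. Probe sets that list the same genes are not separate measurements of them, and a probe set paired with 1 gene may still bind messages of its near-identical copies.

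The replacement H3 genes behaved otherwise on shared probe sets. The 4 that listed H3f3a together with a predicted gene had means of 11.53 to 11.64 with VPA, against 11.64 to 11.71 with PBS, with changes of -0.12 to -0.06 (adjusted p from 0.188 to 0.477). The 2 that listed H3f3b in the same way had 12.79 and 12.82 with VPA, against 12.75 and 12.76 with PBS, and changes of 0.04 and 0.06 (adjusted p = 0.654 and 0.43). None of these 6 was called, and at such signals they were far above the background gauge.

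**Figure D2:**
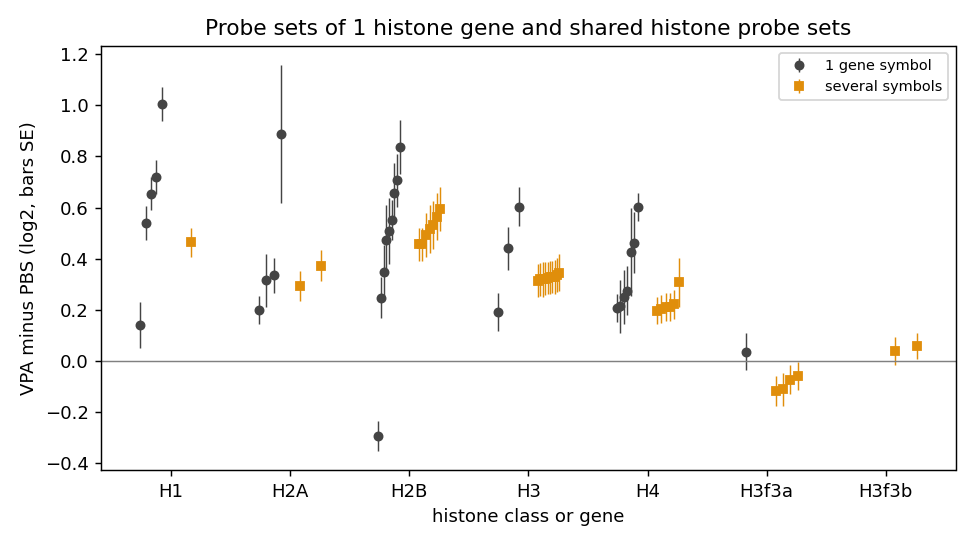
The vertical axis is the change, VPA minus PBS (log2, bars SE), of probe sets paired with 1 histone gene (circles) and of probe sets that list several genes (squares), by class or gene along the horizontal axis. The squares of H2A, H2B, H3 and H4 lie between 0.20 and 0.59, those of H3f3a and H3f3b between -0.12 and 0.06, and H2bc21 is the lone circle at -0.29.

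By position, 23 clustered genes belonged to chromosome 13 and 4 to chromosome 3, while H4f16 (Hist4h4), which the counts of clustered genes include by its older name, lies alone on chromosome 6 (RefSeq, GRCm38.p6). On chromosome 13, 19 of 23 rose and 0 fell, with a median change of 0.47. Of all genes on the array 13.6% rose and 15.7% fell. On chromosome 3, H2bc18 and H3c15 rose, H2bc21 fell and H4c14 was not called.

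VPA replicate 1 stood apart from the other VPA arrays, by a median absolute difference of 0.12 and 0.13 over all genes, against 0.07 between VPA replicates 2 and 3 and 0.06 to 0.07 among PBS arrays. It was the highest VPA array for 23 of the 28 clustered genes, where its signal minus the mean of VPA replicates 2 and 3 had a median of 0.24, against -0.02 over all genes. By class the median was 0.35 for H2B and 0.39 for H4 but -0.04 for H1 and -0.04 for the genes outside the clusters. Without VPA replicate 1, 26 histone genes rose and 1 fell, where 19.8% of all genes rose; the clustered median was 0.33. The rise of H2bc4 was then no longer called, and H1f6, H2ap, H4c3 and H4c14 were called higher. H1f6 lay below the gauge, and the changes of H4c3 and H4c14 were smaller than with all arrays, at 0.18 and 0.16. Among genes called with all arrays, the changes of H2ac4, H2ac8, H2bc22, H2bc3 and H1f10 were smaller by over 1.5 times, at 0.49, 0.18, 0.22, 0.34 and 0.23. Among those not called, the same held for H4c3, H4c14, H4c8 and H4f16, given above, and for H3c7, at 0.11. With fewer PBS arrays fewer genes were called: 16 histone genes rose without PBS replicate 1, 13 without PBS replicate 2 and 13 without PBS replicate 3, where 9.13%, 8.92% and 9.89% of all genes rose, and 1 fell in each case.

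**Figure D3:**
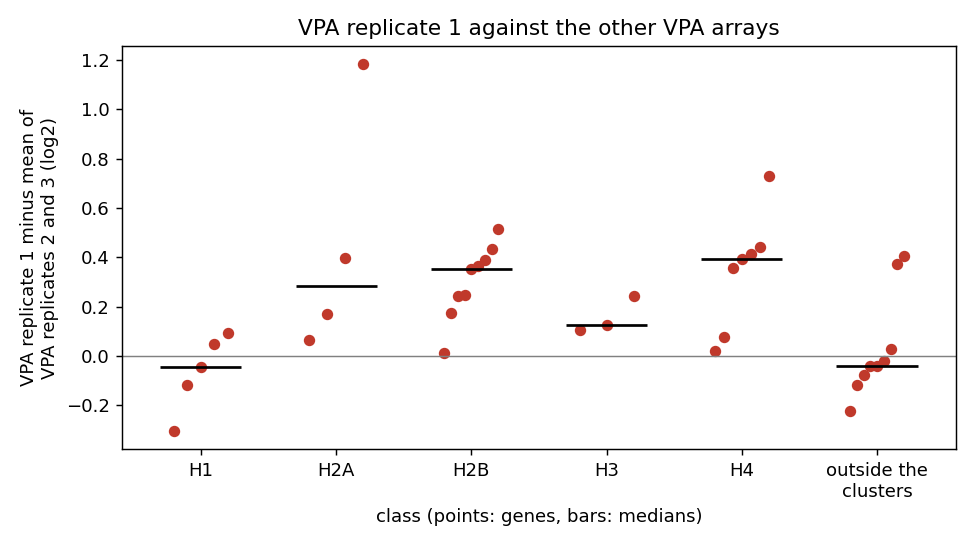
Each point is a histone gene, placed by class, and the vertical axis is the signal of VPA replicate 1 minus the mean of VPA replicates 2 and 3 (log2; bars, medians). H2B and H4 genes sit mostly above 0, with medians of 0.35 and 0.39, while H1 genes and those outside the clusters have medians of -0.04.

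Genes that act in S phase were higher as well. Of 25 measured genes of an S phase and proliferation list, 18 rose and 0 fell, with a median change of 0.31. Over all genes 13.6% rose and 15.7% fell. Ccne1, which encodes the cyclin that starts S phase and drives transcription of histone genes, had 9.47, 9.31 and 9.36 with VPA, against 8.33, 8.42 and 8.44 with PBS, a rise of 0.98 (SE 0.07). Mcm6, a subunit of the replicative helicase, rose by 0.74 (SE 0.08), Tyms, which makes thymidylate, by 0.65 (SE 0.06), and the kinase gene Cdk2 by 0.57 (SE 0.07). The mean level of the list lay between 8.81 and 8.92 on VPA arrays, against 8.47 to 8.58 on PBS arrays, and VPA replicate 1 was not the highest of its group, unlike for the clustered histone genes, whose mean level was 8.60 to 8.87 with VPA and 8.24 to 8.29 with PBS.

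Of 20 measured genes that make and process histone messages 2 rose and 2 fell, near the shares over all genes of 13.6% and 15.7%, and the median change was -0.06. Slbp, whose product binds the stem-loop, had 8.44, 8.60 and 8.62 with VPA, against 8.62, 8.67 and 8.59 with PBS (adjusted p = 0.439). Npat, the coactivator that cyclin E and Cdk2 switch on at histone genes, had 8.91, 9.04 and 9.09 with VPA, against 8.79, 8.79 and 8.89 with PBS; the groups did not overlap, but the change of 0.19 was not called (SE 0.07, adjusted p = 0.0646). It was called after quantile normalization, under both percentile filters and the gauge filter, with array weights and without VPA replicate 1. The members that rose were E2f1, a transcription factor of S phase genes, by 0.60 (SE 0.08), and Eri1, an exonuclease that trims and degrades histone messages, by 0.30 (SE 0.06). Cpsf3, the nuclease that cuts histone and other pre-mRNAs, and Cstf2 changed by -0.28 (SE 0.07) and -0.24 (SE 0.06). The call of Cpsf3 was lost after quantile normalization (adjusted p = 0.0537) and without any 1 of the PBS replicates, and that of Cstf2 without PBS replicate 2 or 3. Without VPA replicate 1, 4 of the 20 genes rose and 6 fell, where 19.8% of all genes rose and 21.2% fell. Casp8ap2 was then also called higher. Hinfp was then called lower (change -0.32, adjusted p = 0.00434), as were Lsm11, Nelfe and Lsm10.

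Of 27 measured genes of histone chaperones, which carry histones to and from DNA, 4 rose and 6 fell, with a median change of -0.09; over all genes 13.6% rose and 15.7% fell, so these counts say little about chaperones as a group. Asf1b, the form of the H3 and H4 chaperone found in dividing cells, had 9.31, 9.23 and 9.41 with VPA, against 8.62, 8.42 and 8.55 with PBS, a rise of 0.78 (SE 0.07). Chaf1a and Chaf1b, subunits of the assembly factor that follows the replication fork, rose by 0.35 (SE 0.08) and 0.22 (SE 0.06), and Mms22l, which acts at damaged forks, by 0.27 (SE 0.06). Asf1a, the form present throughout the cycle, was not called (0.03, adjusted p = 0.777).

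The chaperone genes with the largest falls were Nap1l3 and Nap1l5, neural members of the nucleosome assembly protein family, and Atrx, which helps to deposit the replacement form of H3. Nap1l3 had 7.40, 7.55 and 7.70 with VPA, against 8.22, 8.26 and 8.26 with PBS, a change of -0.70 (SE 0.08), with no overlap. Nap1l5 and Atrx changed by -0.48 (SE 0.07) and -0.42 (SE 0.10). Ubn2, Srcap and Ubn1, of the complexes that place the replacement form of H3 and H2A.Z, changed by -0.24, -0.21 and -0.19, and Hira and Daxx were not called. After quantile normalization the calls of Srcap (adjusted p = 0.0698) and Ubn1 (adjusted p = 0.0508) were lost. Both were also lost when any 1 array other than VPA replicate 1 was left out, that of Ubn1 with the replicate number as a block (adjusted p = 0.0571), that of Atrx without PBS replicate 1, and that of Chaf1b without VPA replicate 3, PBS replicate 2 or PBS replicate 3.

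**Figure D4:**
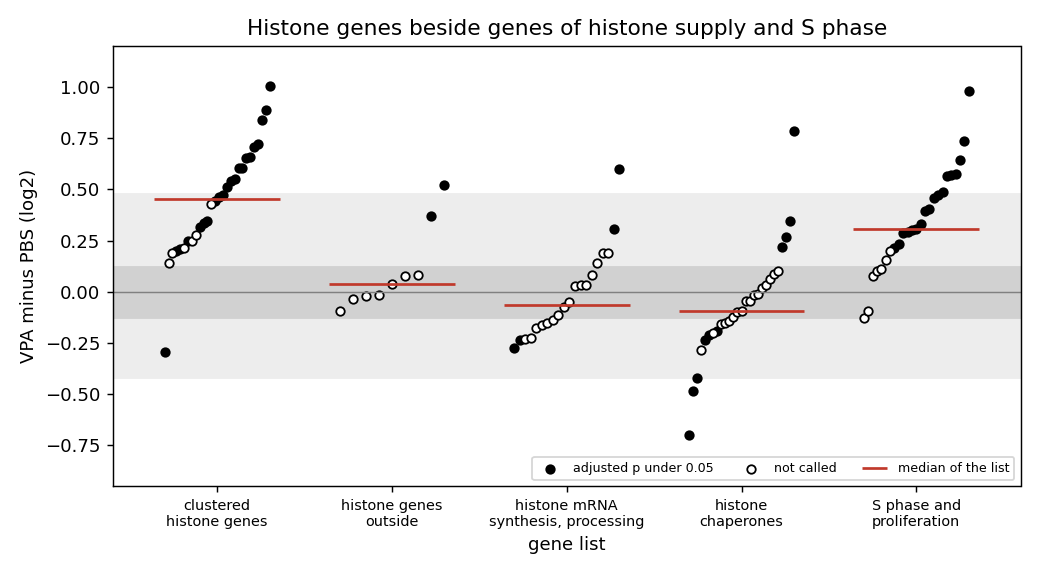
Points are genes of 5 lists, and the vertical axis is the change, VPA minus PBS (log2; filled, adjusted p under 0.05; bar, median of the list; dark and light bands, the middle 50% and 90% of all genes). The clustered histone and S phase lists have medians of 0.45 and 0.31, and the histone genes outside the clusters, message processing genes and chaperones have medians of 0.04, -0.06 and -0.09.

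Markers of cell types moved in the same comparison, in which 13.6% of all genes rose and 15.7% fell, 29.2% in either direction. Of 8 neuronal markers 7 fell, and their mean level was 11.01 to 11.03 with VPA, against 11.26 to 11.31 with PBS, high in all 6 cultures. Of 5 progenitor markers 2 rose, Pax6 by 0.54 and Nes by 0.38. Sox2, Vim and Hes5 were not called, with changes of 0.15, -0.06 and -0.14. Without VPA replicate 1 Hes5 was called lower (-0.19, adjusted p = 0.0198). The mean level of the 5 was 10.10 to 10.20 with VPA and 9.89 to 10.01 with PBS. All 7 fibroblast markers rose, with mean levels of 9.91 to 10.01 with VPA and 8.06 to 8.33 with PBS. The 4 pluripotency markers lay below the background gauge in both groups, and of 7 germ cell markers, of which 5 lay below it, 0 were called. Their part in the change of the histone genes was not tested.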

How the data were processed

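The authors deposited normalized log2 signals, 1 column per array for 35556 probe sets; base 2 was inferred from their range, 2.5 to 13.89. The submitters' processing notes name Partek 6.5 and the build mm9 without saying what each was used for, and the method of normalization is not given in the sources used here. Array medians lay between 6.99 and 7.03, so changes are relative to other genes. GEO's platform annotation gave 1 symbol to 21789 probe sets, and symbols were updated through Entrez IDs (RefSeq; 21698 matched). For each gene the brightest probe set over all 6 arrays was used. Of 77 protein-coding RefSeq genes that fit the name patterns, 37 had a probe set of their own and 37 others stood only on shared probe sets; H3f3c, H3f4 and H1f0 were not analysed here.

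VPA was compared with PBS with limma 3.58.1 in R 4.3.3 (lmFit, eBayes, no covariates). An exact permutation test of 3 against 3 cannot go below 0.1 and was not used. The fit was tested on simulated arrays with changes added to 200 genes. It called 10% of changes of 0.25, 66% of 0.5, 90% of 1 and 100% of 2. Of the calls 4.32% were false. On the real arrays 29.2% of all genes were called, so the same adjusted p matched a larger unadjusted p than in the simulation. The simulated shares are thus not the power of the real comparison. A gene that was not called is still not shown to be unchanged. Values are given for up to 4 called genes per class and list with the largest changes, or the 2 with the smallest p, and for fixed variant genes; other histone genes are described. The members and lists were chosen with earlier results of these data known. Same-numbered VPA and PBS arrays did not deviate together (r of -0.02, -0.01 and 0.02), so replicate numbers were not taken as pairs. Alternatives changed the normalization, centring, filter, variance model, weights, block, probe sets and arrays.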

Additional observations from a re-analysis of the deposited data

How the results depend on the processing

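Across 15 alternatives no called histone gene changed sign. The number of histone genes called higher ranged from 13 to 26 against 23, and the median change from 0.23 to 0.43 against 0.35 where all 37 genes were tested. It was 0.44 over the 30 genes left by the 30th percentile and gauge filters and 0.47 over the 21 left by the 50th percentile filter. The count was 22 after quantile normalization, where 3147 of all genes rose and 2671 fell against 2702 and 3123, and 23 after median centring. Leaving out 1 array gave 13 to 26 histone genes higher, 12 to 23 clustered genes higher, 1778 to 3949 of all genes higher and 2058 to 4224 lower. With array weights 4342 of all genes rose, and with the filter at the 50th percentile 1520 rose. Under that filter 0 histone genes fell, because H2bc21 was left out, and the medians were 0.72 for H1 and 0.18 outside the clusters. With the filters at the 30th percentile and at the gauge the H3 median was 0.60 and the median outside the clusters -0.018, against 0.04 without a filter, values near 0 with no test of their own. Leaving out 1 array gave -0.018 (without VPA replicate 3) to 0.063 for it. The filters left out genes of low signal, so the medians under them cover fewer members. Why the counts over all genes shifted was not tested. With the replicate number as a block, 23 histone genes rose and 1 fell, the call of H2ac1 was lost (adjusted p = 0.0512) and H4c14 was called (adjusted p = 0.0442); the numbers are not shown to pair the cultures. Calls lost without PBS replicate 2 or 3 numbered 10 each, and the same 10 genes: H1f10, H2ac1, H2ac4, H2ac8, H2bc1, H2bc22, H2bc3, H2bc4, H4c4 and H4c6. Signals under the gauge of 6.15 were not told apart from background.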

Other observations

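Histone genes whose present symbols lie outside the name patterns were looked up through older names, after the other values had been seen. Macroh2a2, which encodes a macroH2A form of silent chromatin, had 10.03, 10.17 and 10.20 with VPA, against 10.46, 10.50 and 10.42 with PBS, and fell by 0.33 on the log2 scale (change -0.33, SE 0.06, adjusted p = 0.0051). Its relative Macroh2a1 lay lower on all 3 VPA arrays as well but was not called (-0.13, adjusted p = 0.12). Cenpa, the H3 form of centromeres, was not called (0.16, adjusted p = 0.155). H2aw and H2bu2, named Hist3h2a and Hist3h2ba before, had changes of 0.03 and -0.11 and were not called (adjusted p = 0.714 and 0.468); without VPA replicate 1 the change of H2bu2 was -0.23 and was called (adjusted p = 0.00707). H2aw had 12.16, 12.13 and 12.12 with VPA, against 12.11, 12.10 and 12.11 with PBS, a bright signal with almost no difference, although the groups did not overlap. The testis genes H2ab1 and H2al2a gave adjusted p of 0.456 and 0.632.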
